A study of Homo sapiens with 30 samples.

Results

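The genes compared here are those of the long RNA library of U-87 MG cells that express LARP6 without its La-module (ΔLa-module) and of the long RNA library of parental U-87 MG cells. These are cultured cells of a long-established line from a human glioblastoma. Of 62750 annotated genes, 14569 reached at least 1 CPM (counts scaled to a common library size) in one of both libraries and were compared. Of these, 47 were at least 2-fold higher and 11 at least 2-fold lower in the ΔLa-module library.

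The series holds 30 samples, among them 12 input libraries of 6 lines, and 6 of these are long RNA libraries. The lines were parental cells without a construct and cells transduced with a lentivirus for myc-tagged, codon-optimised LARP6 under a doxycycline-inducible promoter. One line carried the full-length protein (FL). In the other 4 the protein lacked its disordered N-terminal region (ΔNTR), its La-module, both of these (ΔNTD), or its C-terminal region (ΔCTR). The labels give every sample, parental cells included, doxycycline at 60 ng/mL for 24 h. The transduced lines are drug-selected populations and parental cells were not selected, and the LARP6 gene had counts in all 6 lines. Each line had 1 long RNA library, so no test was possible and no p-value is given. The effect of the variant, of transduction and selection, and of the single culture cannot be told apart in a difference from parental cells. The other lines give the only spread there is, and they are other genotypes, not replicates.

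LARP6 belongs to the La-related proteins, which bind RNA through a folded La-module, in which the La motif sits beside an RNA recognition domain. It is known for binding collagen mRNAs. Much of what follows concerns genes of the hypoxia response. In that response the HIF transcription factors bind short elements near genes for glucose uptake, glycolysis, pH control, blood vessel growth and mitophagy. Prolyl hydroxylases of the EGLN family mark the HIF alpha subunits for degradation when oxygen is present. The second group is the NRF2 response, in which NRF2 raises genes for glutathione synthesis, quinone reduction and NADPH supply.

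The parental library held 26683408 counts in genes and the ΔLa-module library 28692476, within the 25027075 to 28692476 of all 6 libraries. Between 62.2 and 65.6% of reads were counted in a gene, and 2.23 to 2.71% of the counts were mitochondrial. All 7 markers of U-87 MG cells were at 1 CPM or more in both libraries, with VIM at 7242 CPM in parental and 7765 in ΔLa-module. The glial marker GFAP was at 0.187 CPM in parental and 0.140 in ΔLa-module. Summed markers of immune cells stayed at 0.175 to 0.534 CPM over the 6 libraries. Among markers of other cell types, SYT1 (neuron) was at 9.89 CPM in parental and 7.34 in ΔLa-module, and MBP (oligodendrocyte) at 3.88 and 1.75. PECAM1 (endothelial) was at 2.43 and 0.978, and EPCAM (epithelial) at 1.72 and 1.68. The construct was codon-optimised, so counts of the LARP6 gene do not check the labels. Whether any of its reads were counted there was not tested. LARP6 was at 53.5 CPM in parental, 61.0 in FL, 75 in ΔNTR, 56.8 in ΔNTD, 56.6 in ΔLa-module and 51.6 in ΔCTR cells. The ΔLa-module value lay within the range of the other lines.

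The first question was how far the ΔLa-module library stood from the parental one. A difference is the log2 ratio of CPM, scaled by TMM (trimmed mean of M-values) factors, with 1 CPM added to both sides. Called means at least 2-fold on this scale. The called genes were 0.323% of those compared for higher and 0.0755% for lower levels. With 0.25 CPM added in place of 1, the numbers were 141 higher and 56 lower. The median over all compared genes was -0.01 and the quartiles were -0.13 and 0.13, so most genes lay close to parental. By level, 15 of the higher and 2 of the lower genes were among 5029 genes below 10 CPM, 23 and 7 among 7053 genes from 10 to 100 CPM, and 9 and 2 among 2487 genes at 100 CPM or more. At 1.5-fold, a threshold added after the data were seen, 324 genes were higher, which is 2.22%, and 146 were lower, which is 1.00%. The differences of the higher genes ran from 1.02 to 2.704 with a median of 1.28. Those of the lower genes ran from -1.51 to -1.0 with a median of -1.12.

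Just inside the threshold lay MXI1 at 1.02 and HAS2-AS1 at 1.03, and just outside it FLNC-AS1 and ENSG00000260400, both at 1.00 after rounding. On the lower side GPNMB at -1.0 and AKR1C1 at -1.04 were inside and LYPD1 at -0.99 was outside. The ratio of counts had an exact binomial 95% interval that excluded 1 for all 47 higher and all 11 lower genes. It excluded 2-fold for 36 of the higher and 6 of the lower genes. These intervals cover counting error only, since reads of 1 molecule can be counted more than once and no spread between cultures enters them.

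**Figure D1:**
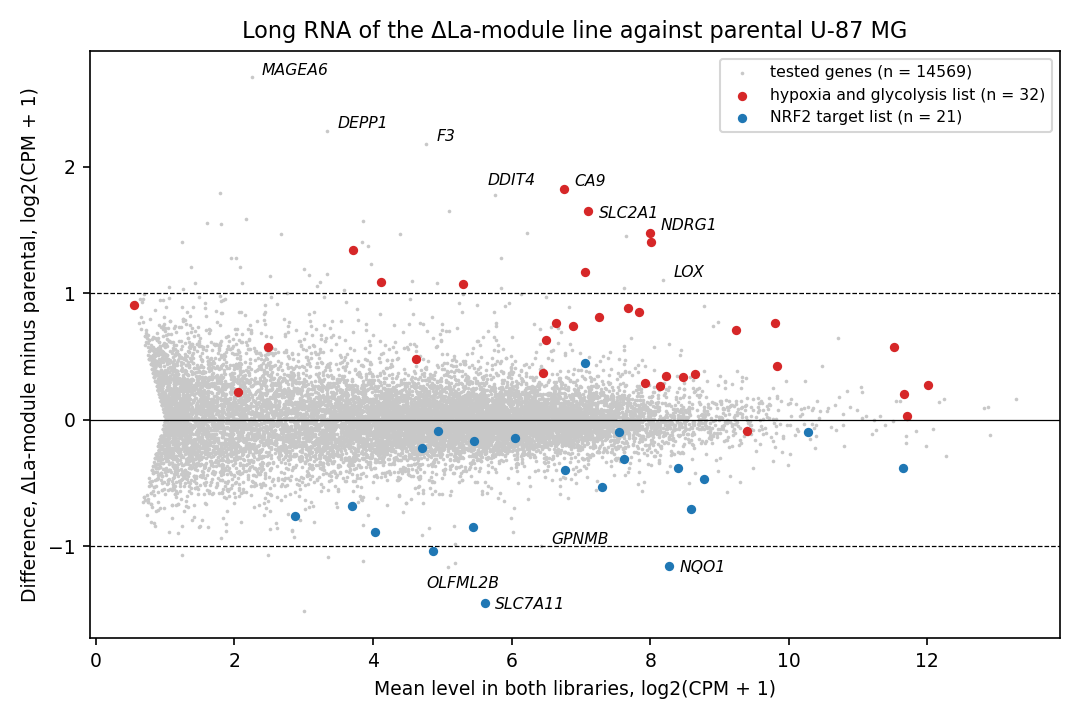
Each point is 1 of 14569 genes, with the mean log2(CPM + 1) of the ΔLa-module and parental libraries on the x axis and the difference between them on the y axis. Dashed lines mark 2-fold. Red points (32 genes of the hypoxia and glycolysis list) lie almost all above 0 and blue points (21 NRF2 targets) almost all below 0.

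The second question was where the ΔLa-module library stood among the other lines. The parental library was the lowest of the 6 in 47 of 47 higher genes and the highest of the 6 in 11 of 11 lower genes. Over all compared genes it was the lowest in 21.2% and the highest in 24.5%. The called genes had been chosen for a low or high parental level, so nothing is read from these counts. The ΔLa-module library was itself the highest of the 6 in 9 of the 47 higher genes and second in 33, against 11.0% and 18.7% of all compared genes, and its level, too, had entered the choice of the genes. ΔNTR cells were above ΔLa-module cells in 35 of the 47. Among the 11 lower genes ΔLa-module was the lowest of the 6 in 7 and second lowest in 4, against 13.1% and 19.2% of all compared genes.

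The differences of the other lines from the same parental library are given side by side and share that library. The median over the 47 higher genes was 1.28 in ΔLa-module, 0.71 in FL, 1.60 in ΔNTR, 1.14 in ΔNTD and 0.81 in ΔCTR. Over the 11 lower genes it was -1.12 in ΔLa-module, -0.63 in FL, -0.83 in ΔNTR, -1.08 in ΔNTD and -0.74 in ΔCTR. The genes were chosen with the parental library that all 5 differences share, so nothing is read from the common sign.

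**Figure D2:**
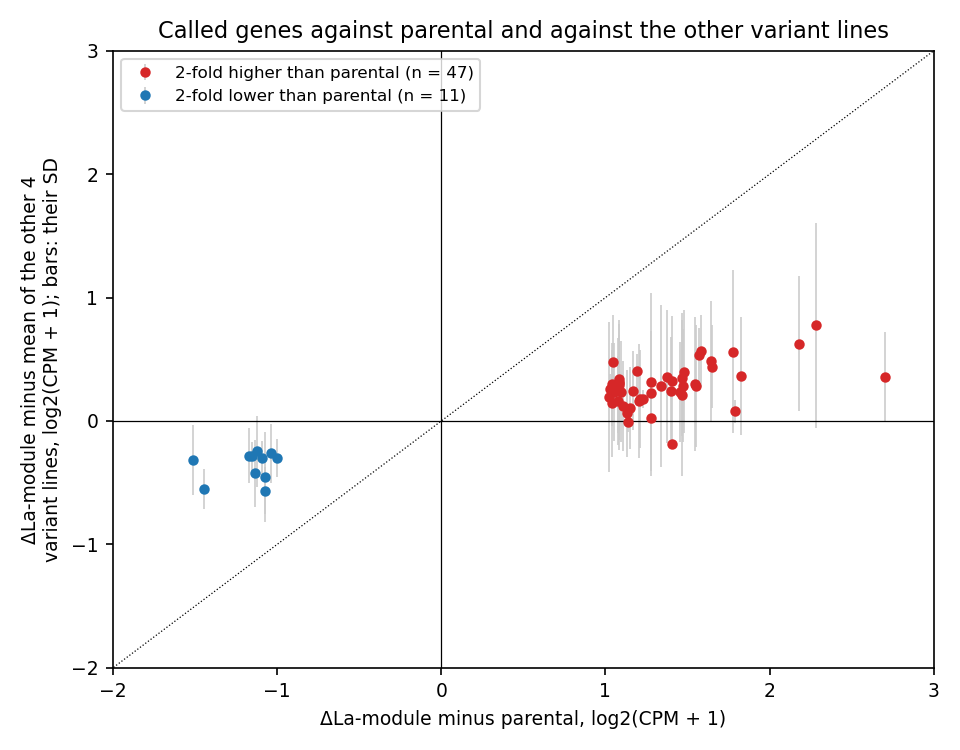
Each point is a called gene, with its difference from parental on the x axis and its difference from the mean of the other 4 variant lines on the y axis, both in log2(CPM + 1), and bars give the SD of these 4 lines. On the y axis the 58 genes lie between -0.57 and 0.78, well below the dotted line of equal differences for the 47 higher genes and above it for the 11 lower ones.

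Measured against the mean of the other 4 variant lines in place of parental, no gene was 2-fold higher or lower. The 47 higher genes had a median of 0.29 there, from -0.19 to 0.78, and 45 lay above 0. The SD of these 4 lines on the log2 scale had a median of 0.41 over the same genes. The 11 lower genes had a median of -0.30, from -0.57 to -0.25. Both sets were chosen for their level in this same ΔLa-module library, so nothing is read from the signs of these values. At 1.5-fold against these 4 lines, 6 genes were higher, which is 0.0412% of the compared genes, and 5 were lower, which is 0.0343%. The 6 were DEPP1, F3 and 4 long noncoding RNAs of at most 2.10 CPM. The 5 were LURAP1, DAAM2, NOL12 and 2 long noncoding RNAs, all at or below 1.12 CPM in ΔLa-module.

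The FL line carried the same vector with the whole protein, so that both lines held a construct, although each was its own selected population with 1 library. Against FL, 4 of 14542 genes were at least 2-fold higher in ΔLa-module, 0.0275%, and 1 was lower, 0.00688%. The 4 were DEPP1 at 1.47, F3 at 1.09, DDIT4 at 1.06 and the long noncoding RNA ENSG00000238258 at 1.01, on the log2 scale. The 1 lower gene was FRAT2, an activator of Wnt signalling, at 1.53 CPM in parental, 3.88 in FL, 2.32 in ΔNTR, 2.04 in ΔNTD, 1.43 in ΔLa-module and 1.85 in ΔCTR. FRAT2 stood high in FL alone, and ΔLa-module was close to parental. At 1.5-fold 134 genes were higher than in FL, 0.921%, and 53 were lower, 0.364%. The genes called against parental were chosen with the same ΔLa-module library, so their values against FL are a description. They had medians of 0.66 for the 47 higher and -0.54 for the 11 lower ones against FL, and 46 of 47 higher and none of the 11 lower ones lay above 0.

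The gene lists described next were taken from a set of 25 lists, which held 606 compared genes. The lists were chosen with earlier results of these data known, so their ranks and shares are descriptions only. Of the called genes, 11 higher and 3 lower ones belonged to a list, and 36 higher and 8 lower ones to none. Hypoxia and glycolysis genes stood furthest above parental of all 25 lists. All 32 listed genes were compared. Of these, 8 were at least 2-fold higher and 17 at least 1.5-fold higher, against 0.323% and 2.22% of all compared genes. None of the 32 was 1.5-fold lower. Their median difference was 0.67, against -0.01 over all compared genes, and 31 of 32 lay above 0. Parental was the lowest of the 6 libraries in 29 of 32, against 21.2% of all compared genes. ΔLa-module was the second highest in 28 of 32, against 18.7% of all compared genes, and the highest in 1, against 11.0%. Against the same parental library the list's median was 0.30 in FL, 0.77 in ΔNTR, 0.57 in ΔNTD and 0.34 in ΔCTR. The median of ΔLa-module against FL was 0.35 for this list.

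Glucose enters the cell through GLUT1, encoded by SLC2A1 (chr1:42925353-42958893, minus strand, GRCh38). SLC2A1 was at 77 CPM in parental, 129 in FL, 260.0 in ΔNTR, 203 in ΔNTD, 243 in ΔLa-module and 133 in ΔCTR. Parental was the lowest and ΔLa-module stood beside ΔNTR at the top. The ratio of ΔLa-module to parental was 3.16 (3.01 to 3.32). Of the glycolytic enzymes, HK1, which phosphorylates glucose, was at 692 CPM in parental and 649 in ΔLa-module, a difference of -0.09. HK2, its inducible relative, was at 354 and 453, a difference of 0.36. GAPDH was at 3738 and 4529.8, a difference of 0.28, and PKM, the pyruvate kinase at the end of the path, at 3303 and 3363, a difference of 0.03.

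PGK1, the first ATP-forming step, was at 682 CPM in parental, 894 in FL, 1219.5 in ΔNTR, 1127 in ΔNTD, 1158 in ΔLa-module and 912 in ΔCTR, a difference of 0.76. LDHA, which turns pyruvate to lactate, was at 2407 CPM in parental, 2893 in FL, 3638 in ΔNTR, 3531 in ΔNTD, 3583 in ΔLa-module and 3041 in ΔCTR, a difference of 0.57. The 3 highest libraries for both genes were ΔNTR, ΔLa-module and ΔNTD. PDK1, a kinase that keeps pyruvate out of the mitochondrion, was at 87.9 CPM in parental, 140.1 in FL, 216 in ΔNTR, 188 in ΔNTD, 199 in ΔLa-module and 138 in ΔCTR. Its ratio was 2.26 (2.15 to 2.37). Lactate leaves the cell through MCT4, encoded by SLC16A3, a gene of none of the lists. SLC16A3 was at 43.8 CPM in parental, 75.7 in FL, 159 in ΔNTR, 96.3 in ΔNTD, 123 in ΔLa-module and 89.0 in ΔCTR, a ratio of 2.81 (2.63 to 3.01).

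CA9, a membrane carbonic anhydrase that regulates pH, had the largest difference in the list. CA9 (chr9:35673928-35681159, plus strand) was at 56.2 CPM in parental, 114 in FL, 241 in ΔNTR, 169.9 in ΔNTD, 201 in ΔLa-module and 129 in ΔCTR. Its difference was 1.82 and its ratio 3.58 (3.39 to 3.80). All 5 variant lines lay above parental, with ΔLa-module second. The related CA12 was at a difference of 0.29.

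BNIP3, a mitophagy receptor of the outer mitochondrial membrane, was at 157 CPM in parental, 259 in FL, 499 in ΔNTR, 410.0 in ΔNTD, 416 in ΔLa-module and 289 in ΔCTR. Its ratio was 2.65 (2.56 to 2.75), and its relative BNIP3L had a log2 difference of 0.88, under the threshold. NDRG1, a stress-responsive gene, was at 152 CPM in parental, 235 in FL, 497 in ΔNTR, 364 in ΔNTD, 426 in ΔLa-module and 254 in ΔCTR. The ratio of NDRG1 was 2.80 (2.698 to 2.90), and ΔLa-module again stood second to ΔNTR.

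Of the secreted products, VEGFA, which drives vessel growth, was at 473 CPM in parental, 574 in FL, 833 in ΔNTR, 685 in ΔNTD, 773 in ΔLa-module and 575 in ΔCTR, a difference of 0.71 that did not reach 2-fold. The peptide hormone gene ADM was at 26.1 CPM in parental, 35.2 in FL, 65.4 in ΔNTR, 49.0 in ΔNTD, 56.1 in ΔLa-module and 39.0 in ΔCTR, a ratio of 2.15 (1.96 to 2.35). ANGPTL4, an inhibitor of lipoprotein lipase, was at 7.24 CPM in parental, 9.51 in FL, 29.8 in ΔNTR, 17.7 in ΔNTD, 19.8 in ΔLa-module and 13.2 in ΔCTR, a ratio of 2.74 (2.33 to 3.24). All 3 genes kept the same order of the top 3 lines, ΔNTR before ΔLa-module before ΔNTD. EGLN1, the HIF prolyl hydroxylase that closes the feedback loop, was at 10.9 CPM in parental, 14.7 in FL, 30.5 in ΔNTR, 20.2 in ΔNTD, 24.1 in ΔLa-module and 14.8 in ΔCTR, a ratio of 2.22 (1.94 to 2.56).

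The hypoxia response element core, ACGTG on either strand, was looked for in the 300 bases from 250 before to 50 after the gene start given by RefSeq (GRCh38.p14). It was present in 14 of 38 higher genes with a promoter entry (36.8%), in 27.1% of 10465 compared genes and in 21.6% of 27305 promoters. None of the 7 lower genes with an entry held it. A match is a description of the letters and not a bound site. The following stretches lie before the start of 6 of these genes, read 5′ to 3′ on the strand of the gene, with the core in capitals, which read CACGT where the core lies on the other strand and CACGTG where both overlap. They were chosen after their values were seen, as examples from genes of different roles, pH control, mTORC1 inhibition, energy metabolism, mitophagy, matrix crosslinking and oxygen sensing. Other higher genes with a match, not shown, included ZP1, ROS1, PPFIA4, INSIG2, SLC7A5 and ANGPTL4.
CA9, chr9:35673885-35673927, plus strand: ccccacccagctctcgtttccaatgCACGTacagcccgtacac
DDIT4, chr10:72273774-72273828, plus strand: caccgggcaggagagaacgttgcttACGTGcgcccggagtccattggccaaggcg
AK4, chr1:65147434-65147488, plus strand: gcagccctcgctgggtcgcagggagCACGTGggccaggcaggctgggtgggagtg
BNIP3, chr10:131982028-131982082, minus strand: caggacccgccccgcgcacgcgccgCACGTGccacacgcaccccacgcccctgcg
LOX, chr5:122078415-122078469, minus strand: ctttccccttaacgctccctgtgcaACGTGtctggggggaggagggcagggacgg
EGLN1, chr1:231422288-231422325, minus strand: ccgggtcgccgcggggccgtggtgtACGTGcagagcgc

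The core began 18 bases before the start in CA9, 125 in DDIT4, 93 in AK4, 134 in BNIP3, 185 in LOX and 13 in EGLN1. For the lower genes the core of the antioxidant response element, TGACNNNGC on either strand, was counted in the same way. It was present in 2 of the 7 lower genes with an entry (28.6%), in 15.3% of the compared genes and in 4 of the 38 higher genes (10.5%).

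**Figure D3:**
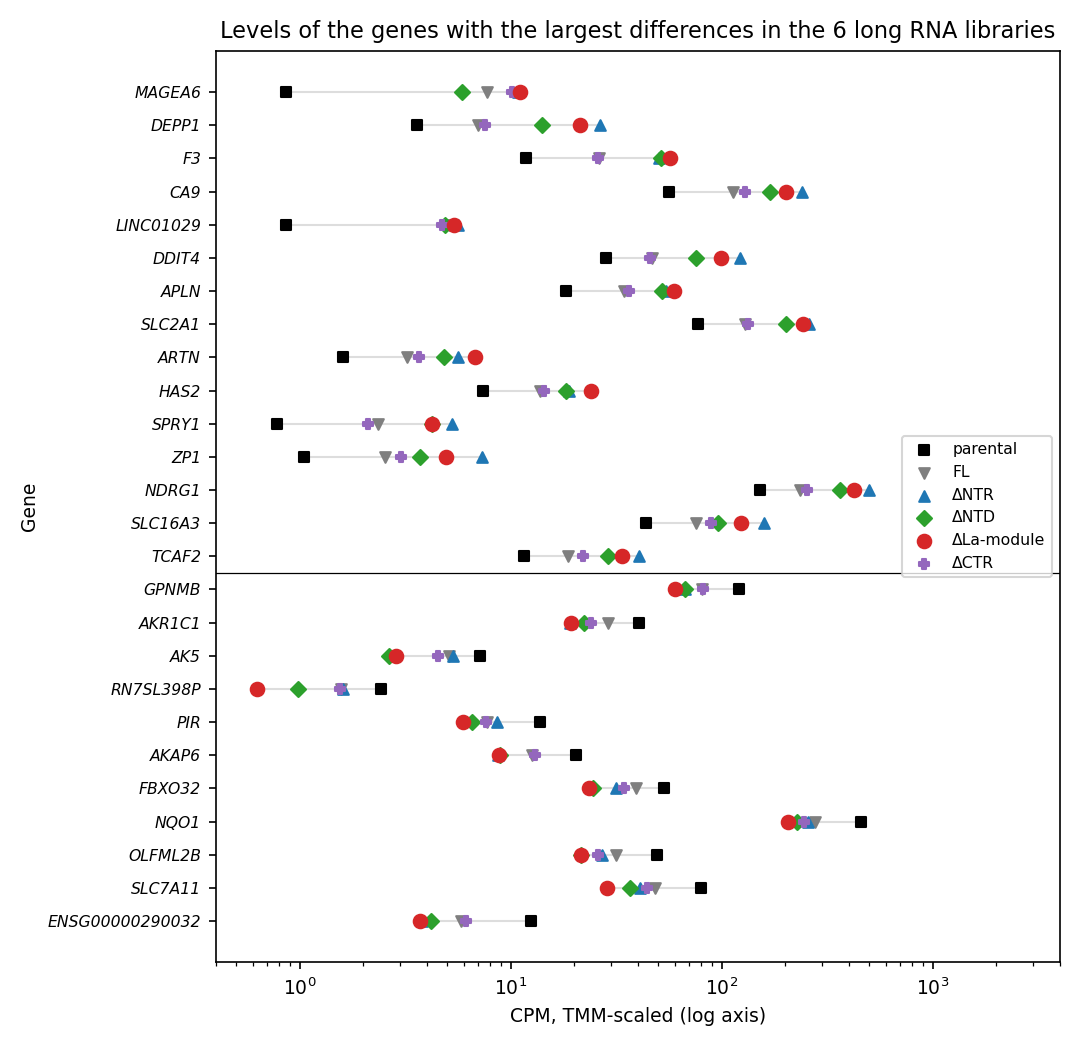
CPM (log axis) of the 15 genes with the highest and the 11 with the lowest difference, 1 row a gene, with a symbol for each of the 6 long RNA libraries. Parental (black squares) lies at the low end for every gene above the line and at the high end for every gene below it, and ΔLa-module (red circles) at or near the other end.

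The other higher genes belonged to none of the 25 lists, except where said. DEPP1, a regulator of autophagy, was at 3.58 CPM in parental, 7.02 in FL, 26.6 in ΔNTR, 14.1 in ΔNTD, 21.3 in ΔLa-module and 7.57 in ΔCTR. Its difference of 2.28 was the second largest, and FL and ΔCTR stayed well below the other 3 variant lines. DDIT4, an inhibitor of mTORC1 that is also in the list of amino acid stress genes, was at 28.2 CPM in parental, 46.9 in FL, 123 in ΔNTR, 75.2 in ΔNTD, 99.0 in ΔLa-module and 45.8 in ΔCTR. Its ratio was 3.51 (3.24 to 3.81).

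AK4, a mitochondrial adenylate kinase, was at 121 CPM in parental, 219.8 in FL, 389 in ΔNTR, 329.6 in ΔNTD, 332 in ΔLa-module and 226 in ΔCTR, a ratio of 2.75 (2.65 to 2.87). HILPDA, a protein of lipid droplets, had a difference of 1.41, HIF3A, a HIF alpha subunit, 1.20 and MXI1, an antagonist of MYC, 1.02. AK4, HILPDA, HIF3A and MXI1 were chosen after their values were seen. In all 4 the ΔLa-module library was second to ΔNTR.

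F3 encodes tissue factor, the starter of blood clotting. F3 was at 11.8 CPM in parental, 26.3 in FL, 50.5 in ΔNTR, 51.4 in ΔNTD, 56.9 in ΔLa-module and 25.8 in ΔCTR. FL and ΔCTR lay together at about the same level, the 3 lines with a deletion in the N-terminal part lay together above them, and ΔLa-module was the highest of the 6. The ratio to parental was 4.83 (4.28 to 5.46). APLN, the ligand apelin, was at 18.2 CPM in parental, 34.3 in FL, 54.6 in ΔNTR, 52.2 in ΔNTD, 59.3 in ΔLa-module and 36.3 in ΔCTR, with ΔLa-module again the highest.

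HAS2, a synthase of hyaluronan, was at 7.39 CPM in parental, 13.8 in FL, 19.0 in ΔNTR, 18.2 in ΔNTD, 23.9 in ΔLa-module and 14.4 in ΔCTR. ΔLa-module was the highest, 0.32 above ΔNTR on the log2 scale. HAS2-AS1, which overlaps HAS2 on the opposite strand, had a difference of 1.03, and the counting kept the strands apart. ARTN, a ligand of the GDNF family, was at 1.60 CPM in parental, 3.24 in FL, 5.61 in ΔNTR, 4.83 in ΔNTD, 6.81 in ΔLa-module and 3.69 in ΔCTR.

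A smaller set of genes was low in parental, and all of it but MAGEA6 was at similar levels in the 5 variant lines. MAGEA6, a cancer-testis antigen on chromosome X, had the largest difference of all, 2.704. MAGEA6 was at 0.858 CPM in parental, which is 23 counts, 7.70 in FL, 10.9 in ΔNTR, 5.89 in ΔNTD, 11.1 in ΔLa-module and 10.2 in ΔCTR. MAGEA3, its near-identical neighbour, was at 0.448 CPM in parental, 3.21 in FL, 3.40 in ΔNTR, 3.49 in ΔNTD, 2.83 in ΔLa-module and 3.32 in ΔCTR. Reads of these 2 copies can be split or lost in counting, so their single values are uncertain. LINC01029, a long noncoding RNA, was at 0.858 CPM in parental and between 4.73 and 5.65 in the 5 variant lines. The receptor tyrosine kinase ROS1 was at 9.29 CPM in parental and between 19.3 and 23.1 in the variant lines, with an SD of 0.07 over the other 4 on the log2 scale. FRMD3 was at 4.70 CPM in parental and between 10.9 and 12.7 in the variant lines. For MAGEA3 and FRMD3 the ΔLa-module value was below the mean of the other 4 variant lines, by -0.19 and -0.0069.

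The other genes among the 15 highest were SPRY1, ZP1 and TCAF2. SPRY1, an inhibitor of receptor tyrosine kinase signalling, was at 0.784 CPM in parental, 2.35 in FL, 5.29 in ΔNTR, 4.25 in ΔNTD, 4.23 in ΔLa-module and 2.11 in ΔCTR. ZP1, known as a protein of the egg coat, was at 1.04 CPM in parental and 4.96 in ΔLa-module. TCAF2, a regulator of a TRP channel, was at 11.6 and 33.8 CPM, and its annotation overlaps that of another higher gene, the long noncoding RNA ENSG00000291149. In all, 9 called genes had fewer than 30 parental counts, and all 9 were higher genes.

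The median of 26 compared genes of the ATF4 and amino acid stress list was 0.17. At 2-fold 2 were higher and 1 lower, against 0.323% and 0.0755% of all compared genes. The 2 were DDIT4 and SLC7A5, the large neutral amino acid transporter LAT1, at 39.2 CPM in parental, 53.4 in FL, 106 in ΔNTR, 83.3 in ΔNTD, 81.9 in ΔLa-module and 63.4 in ΔCTR. The 1 lower gene was SLC7A11, described with the NRF2 targets. The abundant members STC2, MTHFD2 and SHMT2, of which the latter 2 are mitochondrial folate enzymes, had differences of 0.40, 0.18 and 0.01.

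NRF2 targets stood furthest below parental of the 25 lists. Of 21 compared genes, 3 were at least 2-fold lower and 8 at least 1.5-fold lower, against 0.0755% and 1.00% of all compared genes. None of the 21 was 1.5-fold higher. Their median difference was -0.40, against -0.01 over all compared genes, and 20 of 21 lay below 0. Parental was the highest of the 6 libraries in 18 of 21 and ΔLa-module the lowest in 7, against 24.5% and 13.1% of all compared genes. The list's median against the same parental library was -0.33 in FL, -0.29 in ΔNTR, -0.38 in ΔNTD and -0.43 in ΔCTR. The 5 variant lines thus lay between -0.43 and -0.29, with ΔLa-module inside this range.

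SLC7A11 (chr4:138164097-138242349, minus strand), the cystine transporter that feeds glutathione synthesis, was at 80.0 CPM in parental, 48.5 in FL, 41.2 in ΔNTR, 36.7 in ΔNTD, 28.7 in ΔLa-module and 44.4 in ΔCTR. ΔLa-module was the lowest, 0.55 below the mean of the other 4 variant lines on the log2 scale, whose SD was 0.17. The ratio to parental was 0.359 (0.331 to 0.389). NQO1, a quinone reductase, was at 459 CPM in parental, 277 in FL, 258 in ΔNTR, 228 in ΔNTD, 206 in ΔLa-module and 245 in ΔCTR, a ratio of 0.448 (0.434 to 0.462). AKR1C1, an aldo-keto reductase with close relatives among which reads can be split, was at 40.8 CPM in parental, 29.0 in FL, 19.2 in ΔNTR, 22.4 in ΔNTD, 19.3 in ΔLa-module and 24.0 in ΔCTR.

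The thioredoxin reductase gene TXNRD1 was at 492 CPM in parental and 302 in ΔLa-module, a difference of -0.70. FTH1, the ferritin heavy chain, was at 3660.2 and 2807, a difference of -0.38 that turned to 0.19 when both strands were counted. GCLM and GCLC, the subunits of the enzyme that starts glutathione synthesis, had differences of -0.15 and -0.17. HMOX1, heme oxygenase, was the 1 gene of the list above parental, at 114 CPM in parental, 121 in FL, 188 in ΔNTR, 148 in ΔNTD, 155 in ΔLa-module and 132 in ΔCTR.

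Of the lower genes outside the lists, PIR, an iron-binding protein known as an NRF2 target, was at 13.8 CPM in parental, 7.73 in FL, 8.61 in ΔNTR, 6.58 in ΔNTD, 5.97 in ΔLa-module and 7.61 in ΔCTR. GPNMB, a membrane glycoprotein of lysosomes and melanosomes, was at 121 CPM in parental, 80.9 in FL, 67.3 in ΔNTR, 67.2 in ΔNTD, 59.8 in ΔLa-module and 81.5 in ΔCTR. FBXO32, a ubiquitin ligase subunit known from muscle wasting, was at 53.1 CPM in parental, 39.1 in FL, 31.5 in ΔNTR, 24.6 in ΔNTD, 23.6 in ΔLa-module and 34.4 in ΔCTR. ΔLa-module was the lowest of the 6 in all 3.

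OLFML2B, an extracellular olfactomedin-like protein, was at 49.5 CPM in parental and 21.5 in both ΔNTD and ΔLa-module. AKAP6, an anchor of protein kinase A, was at 20.3 CPM in parental and 8.80 in ΔLa-module, and AK5, an adenylate kinase, at 7.13 and 2.86. The remaining 2 lower genes were ENSG00000290032, a long noncoding RNA at 12.5 CPM in parental and 3.74 in ΔLa-module, and RN7SL398P, a copy related to 7SL RNA at 2.43 and 0.629. The copy shares sequence with other 7SL copies, and its counts are uncertain.

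**Figure D4:**
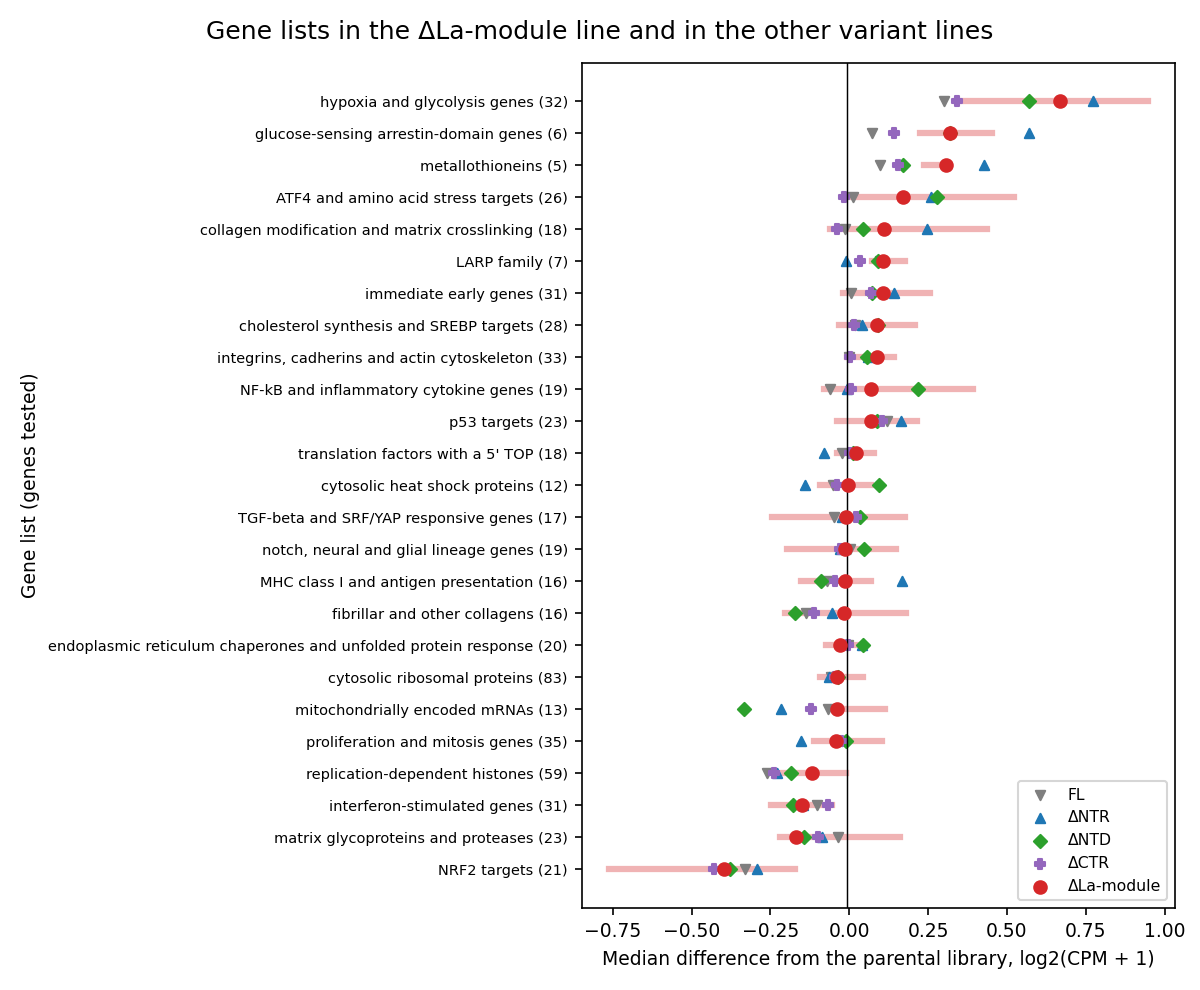
Median difference from the parental library, in log2(CPM + 1), of 25 gene lists, with the number of compared genes in parentheses. Red circles are ΔLa-module with the quartiles of its genes as bars, other symbols the other variant lines, and the vertical line the median of all compared genes in ΔLa-module (-0.01). In ΔLa-module the hypoxia and glycolysis genes (0.67) lie furthest to the right and the NRF2 targets (-0.40) furthest to the left.

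LARP6 and its relatives differed little from parental. The 7 LARP family genes had a median of 0.11 and a range of 0.04 to 0.21, and none was called. LARP1, which binds mRNAs of ribosomal proteins, was at 587 CPM in parental and 602 in ΔLa-module, and SSB, the La protein itself, at 86.0 and 99.7.

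Collagen mRNAs are the best known LARP6 targets. Of 16 compared collagen genes none was called, and their median was -0.02. COL1A1 was at 856 CPM in parental, 729.9 in FL, 629 in ΔNTR, 894 in ΔNTD, 974 in ΔLa-module and 995 in ΔCTR. COL1A2, which encodes the other chain of type I collagen, was at 773 CPM in parental, 681 in FL, 586 in ΔNTR, 631 in ΔNTD, 690.0 in ΔLa-module and 716 in ΔCTR. In both the ΔLa-module value lay inside the range of the other lines. COL4A2 was the 1 collagen gene past 1.5-fold, at 18.4 CPM in parental and between 9.09 and 11.2 in the 5 variant lines.

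The median of 18 compared genes for collagen modification and crosslinking was 0.11. At 2-fold 1 was higher and at 1.5-fold 3, against 0.323% and 2.22% of all compared genes. The called gene was LOX, which crosslinks collagen and elastin and is also a known HIF target. LOX was at 197 CPM in parental, 304 in FL, 538 in ΔNTR, 419.8 in ΔNTD, 425 in ΔLa-module and 336 in ΔCTR, a ratio of 2.16 (2.09 to 2.23). The other 2 were the lysyl hydroxylase PLOD2, at 383 and 656 CPM in parental and ΔLa-module, and the prolyl hydroxylase subunit P4HA1, at 114 and 201. P4HB, the most abundant member, had a difference of 0.13.

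No gene of the remaining 19 lists was called at 2-fold. Their medians lay between -0.17 for matrix glycoproteins and proteases and 0.32 for arrestin-domain genes. Cytosolic ribosomal proteins had a median of -0.04 over 83 genes and a range of -0.24 to 0.25, with RPLP0, RPL4 and RPL3 at 0.06, -0.11 and -0.03. The 31 interferon-stimulated genes had a median of -0.15, and the 35 proliferation and mitosis genes one of -0.04. Of 6 arrestin-domain and glucose-sensing genes 1 was 1.5-fold higher, against 2.22% of all compared genes. It was ARRDC3, at 82.4 CPM in parental, 113 in FL, 169.8 in ΔNTR, 159 in ΔNTD, 153 in ΔLa-module and 119 in ΔCTR. TXNIP, an inhibitor of glucose uptake, was at 296 CPM in parental and 377 in ΔLa-module.

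In some lists ΔLa-module lay beyond all 4 other variant lines in a larger share of genes than over all compared genes. Over all compared genes ΔLa-module lay above all 4 other variant lines in 13.8% and below all 4 in 15.4%. Below all 4 it lay in 6 of 20 endoplasmic reticulum chaperone and unfolded protein response genes and in 7 of 21 NRF2 targets. The median differences of these lists from the mean of the 4 lines were small, -0.046 and -0.074. No gene of these 2 lists had ΔLa-module above all 4. It lay above all 4 in 10 of 13 mitochondrially encoded mRNAs, whose median difference from their mean was 0.16, and in 38 of 59 replication-dependent histone genes, with a median of 0.10. Parental was still higher than ΔLa-module in most of these genes, 7 of 13 and 46 of 59. The genes of a list come from the same library of each line and are not replicates. The mitochondrial share of all counts was 2.71% in parental, 2.50 in FL, 2.29 in ΔNTR, 2.23 in ΔNTD, 2.57 in ΔLa-module and 2.44 in ΔCTR. MT-ND4, a subunit of respiratory complex I, was at 3764 CPM in parental, 3407 in FL, 3002 in ΔNTR, 2987 in ΔNTD, 3535 in ΔLa-module and 3323 in ΔCTR. The linker histone gene H1-5 was at 605 CPM in parental, 505 in FL, 484 in ΔNTR, 516 in ΔNTD, 519 in ΔLa-module and 472 in ΔCTR. Their differences from the other 4 lines were small, 0.16 and 0.07, against SDs of 0.10 and 0.06.

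In 11 of 28 cholesterol synthesis and SREBP targets ΔLa-module lay above all 4 other variant lines, and in none below. The largest of these was SCD, which desaturates stearic acid. SCD was at 288 CPM in parental, 290.1 in FL, 314 in ΔNTR, 321 in ΔNTD, 411 in ΔLa-module and 285 in ΔCTR. The 5 other libraries lay within 285 to 321, and ΔLa-module was 0.36 above the nearest of them on the log2 scale. FADS2, another desaturase, was at 8.06 CPM in parental, 9.26 in FL, 10.9 in ΔNTR, 9.34 in ΔNTD, 13.2 in ΔLa-module and 8.60 in ΔCTR. SREBF1, which encodes a transcription factor of lipid synthesis, was at 27.9 CPM in parental, 35.3 in FL, 45.8 in ΔNTR, 37.1 in ΔNTD, 46.6 in ΔLa-module and 31.2 in ΔCTR, where ΔNTR came close to ΔLa-module. The abundant member ACLY had a difference of 0.07 from parental, and the list's median difference was 0.09 from parental and 0.07 from the mean of the other 4 lines.

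No compared gene stood at least 1.5-fold beyond all other 5 libraries in ΔLa-module. The largest distance to the nearest other library was 0.58 above and 0.54 below, both in long noncoding RNAs of under 2 CPM. Over the same genes, the number at least 1.5-fold beyond all others was 11 above and 37 below for parental. It was 21 above and 1 below for ΔNTR, 0 above and 1 below for ΔNTD, and 0 in both directions for FL and ΔCTR. All counts of this paragraph cover genes of at least 1 CPM in parental or ΔLa-module. Genes that reached it only in another line could not enter, so the counts are not alike across lines. At 1.25-fold, ΔLa-module had 34 genes above and 20 below all others, and parental 117 and 196. The numbers were 295 and 47 for ΔNTR, 13 and 77 for ΔNTD, 16 and 34 for FL, and 16 and 24 for ΔCTR.

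The called genes were also described by properties that did not themselves enter their choice. Level did enter it, through the filter and the 1 CPM added, and biotype and length were not split by level. Of the 47 higher genes 41 were protein-coding, 5 were long noncoding RNAs and 1 was a transcribed pseudogene, FER1L4, while 81.3% of the compared genes were protein-coding and 14.6% long noncoding RNAs. Their summed exon length had a median of 4764 bases, that of the lower genes 5906 and that of all compared genes 5014.5. Along the chromosomes, the median difference of genes at 10 CPM or more ran from -0.07 on chromosome 22 (216 genes) to 0.03. In 4 pairs the called genes lay within 100 kb of each other or overlapped, FER1L4 with SPAG4, TCAF2 with ENSG00000291149, HAS2 with HAS2-AS1, and MAGEA3 with MAGEA6. No count over all compared genes stands beside these pairs, so nothing is read from their number.

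LARP6 binding was set beside the called genes through the pooled iCLIP peak lists of the study (crosslinking and immunoprecipitation of the myc-tagged protein). The FL list held a peak in 17 of the 47 higher genes, 36.2%, in 1 of the 11 lower genes, 9.09%, and in 31.8% of all compared genes. Peaks are found more often in abundant RNAs. Of the genes at 100 CPM or more, 9 of 9 higher genes and 82.4% of all 2487 compared genes held an FL peak. Of those at 10 to 100 CPM it was 6 of 23 higher genes and 33.6% of 7053. Below 10 CPM it was 2 of 15 higher genes and 4.31% of 5029. The list of the ΔLa-module protein itself held 636 peaks, against 14334 for FL. It had peaks in 2 of the 47 higher genes, in none of the 11 lower genes, and in 3.14% of the compared genes. The 2 were AK4 and LOX, with 1 peak each, of score 3 and 4. At 100 CPM or more it was 2 of 9 higher genes and 11.7% of 2487 compared genes. The paper reports no RNA binding of this mutant in cells and excluded it from later analysis, so these peaks are not read as binding.

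MIR210HG, the host transcript of the hypoxia-responsive microRNA miR-210, allowed a look at a second kind of library. MIR210HG was at 2.84 CPM in parental, 5.49 in FL, 10.4 in ΔNTR, 7.05 in ΔNTD, 7.41 in ΔLa-module and 6.09 in ΔCTR in long RNA, a ratio of 2.61 (2.00 to 3.44). The deposited counts are for the MIR210 gene and do not separate its arms. The 3p strand is shown to identify the microRNA, with its seed, bases 2 to 8, in capitals (RefSeq, chr11:568112-568133, minus strand), and its own level was not measured.
hsa-miR-210-3p: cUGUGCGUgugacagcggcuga

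In the small RNA libraries, also 1 a line, the MIR210 gene had 6345 counts in parental and 5851 in ΔLa-module cells. Scaled by library totals this was 616 CPM in parental, 572 in FL, 1321 in ΔNTR, 1285 in ΔNTD, 745 in ΔLa-module and 1156 in ΔCTR. The ratio of ΔLa-module to parental was 1.21 (1.17 to 1.25) by totals and 1.34 by TMM. By totals ΔLa-module, FL and parental were the 3 lowest. With TMM scaling MIR210 was at 653 CPM in parental, 684 in FL, 1221 in ΔNTR, 1096 in ΔNTD, 873 in ΔLa-module and 986 in ΔCTR. The same 3 lines were the lowest, but ΔLa-module lay closer to ΔCTR than to FL, so the distances between the lines depended on the scaling.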

How the data were processed

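Long RNA (paired-end, 150 nt reads) of 6 U-87 MG lines was analysed, 1 library a line, grouped by the labels. The authors trimmed reads with TrimGalore 0.6.10, aligned them with STAR 2.7.10b to GRCh38.p13 with GENCODE release 42, and deposited raw counts per gene in unstranded, forward and reverse columns. The reverse column was used for long RNA and the forward column for small RNA. Reads that were unmapped, multimapping, ambiguous or outside genes were left out. The deposited iCLIP peak lists give crosslink counts summed over 3 replicates and were used only for the presence of a peak, in the FL and ΔLa-module lists. The other 3 peak lists were not used here. Names and coordinates came from GENCODE release 44 of the same build, which matched 62672 identifiers and not 78.

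CPM was scaled by TMM factors over the 6 libraries (edgeR 4.0.16), and log2(CPM + 1) understates changes of low genes. Depth was 25027075 to 28692476 counts a library. With 1 library a side nothing was tested, and intervals are exact binomial 95% intervals for counting error. The calculation was tested on simulated data. Alternatives were DESeq2 1.42.0 size factors, library totals, another pseudocount, other filters, the unstranded column and another reference. The members and lists were chosen with earlier results of these data known. Genes were named if among the 15 highest or lowest past 2-fold, if a list member past 2-fold, or if among the 2 to 4 most abundant members of a described list, with LARP6. All others, further list members included, were chosen after their values were seen.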

Additional observations from a re-analysis of the deposited data

How the results depend on the processing

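Library totals, DESeq2 size factors, the filter of 5 CPM, no filter and the unstranded column left the numbers of called genes within 40 to 48 higher and 9 to 11 lower, and every called gene that could be compared kept its direction under them. With a pseudocount of 0.25 in place of 1 the numbers were 141 and 56, since low genes count more. At 1.5-fold, an alternative chosen after seeing the data, they were 324 and 146. With the mean of the other 4 variant lines as the reference in place of parental they were 0 and 0, and the medians were 0.16 for hypoxia and glycolysis genes and -0.074 for NRF2 targets. Against that reference 2 of the named genes changed sign, MAGEA3 at -0.19 and FRMD3 at -0.0069. What causes these changes was not tested here.

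No paired analysis was possible because each line had 1 long RNA library. Leaving out a replicate was not run, since none would remain. A spread between cultures of 1 line was not measured, and genes with few parental counts, such as MAGEA3 with 12, have wide intervals (3.43 to 12.7 for its ratio).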

Other observations

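The small RNA libraries of the same lines also held a few reads of the called mRNAs. The library names do not say whether both kinds of library were made from the same RNA. Of the 58 called genes 9 had at least 10 counts there in one of both libraries. DDIT4 had 35 counts in parental, 45 in FL, 62 in ΔNTR, 56 in ΔNTD, 76 in ΔLa-module and 29 in ΔCTR, a ratio of ΔLa-module to parental of 2.85 (1.89 to 4.38) by library totals. The ratio was 1.67 (1.11 to 2.54) for NDRG1, 2.03 (1.15 to 3.64) for ANGPTL4 and 2.27 (1.03 to 5.27) for SPAG4. In the order used for DDIT4, the counts were 44, 33, 37, 74, 56 and 30 for NDRG1. They were 22, 20, 24, 38, 34 and 21 for ANGPTL4, and 11, 10, 10, 18, 19 and 16 for SPAG4. These counts are not scaled, and library totals ran from 6181270 to 10307756. BNIP3 had 0 counts in parental, 8 in FL, 4 in ΔNTR, 16 in ΔNTD, 10 in ΔLa-module and 6 in ΔCTR. For ADM, higher in long RNA, the ratio was 0.718 (0.440 to 1.15), with 53 counts in parental and 29 in ΔLa-module, and its interval includes 1. The intervals of ZNF395 (0.730 to 6.28), ERRFI1 (0.861 to 2.00) and SLC7A11 (0.220 to 1.41) also included 1. The intervals cover counting error only.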
